A study of Arabidopsis thaliana with 16 samples.

Results

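Lipid-transfer proteins and MD-2-related lipid-recognition proteins are small lipid-binding proteins, and 4 of their genes were followed here along the Arabidopsis root. AT4G22640 and AT3G53980 encode proteins of the lipid-transfer type. AT5G23830 and AT5G23840 encode proteins with an MD-2-related lipid-recognition domain. The 4 genes were chosen by their measured low pH differences, pH 4.6 against pH 5.7, in these same arrays, as genes whose signal was lower at low pH. Their low pH differences are given below as descriptions, without a test. Each gene had 1 probe set, all with the plain suffix _at, among 22746 probe sets without controls, in which 13286 genes could be named singly. All 4 were among the 16405 probe sets that passed a filter on dim signal and entered the fit.

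Plant lipid-transfer proteins of the non-specific kind are cysteine-rich and mostly secreted. Disulfide bonds hold their helices around a hydrophobic cavity that takes up fatty acyl chains, and members have been tied to the deposition of cutin, suberin and wax and to the cell wall. The MD-2-related domain is named after human MD-2, the partner of Toll-like receptor 4 that binds bacterial lipopolysaccharide. NPC2, which carries sterols in animal cells, has the same fold. The lipids bound by the plant proteins of this kind are less well known.

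The samples were sections of roots of Arabidopsis thaliana, ecotype Columbia, aged 6 days, from 4 numbered zones along the length of the root. The low pH groups had spent 24 h on medium at pH 4.6 and the control groups 24 h on medium at pH 5.7. All plants had first grown for 5 days at pH 5.7, and both transfer media contained 3 mM DMG as buffer. Each zone and pH had 2 arrays, 16 in all, and the labels call the zones stages of development without naming their tissues. Levels are linear MAS5 intensities, scaled by the authors to a common mean. They can be compared for 1 probe set between arrays and not between probe sets. Log2 values are log2(intensity + 16), and each difference is pH 4.6 minus pH 5.7 with its SE from a limma model of the 8 groups.

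Of the 16 arrays, 4 stood apart from their own replicate by over 1 log2 unit in the mean of 69 plastid-encoded genes. They were replicate 2 of zone 3 at pH 4.6 and replicate 2 of zones 2, 3 and 4 at pH 5.7. The low pH differences and zone tests of the 4 genes, and the low pH calls, are given without them where they moved. Correlations, similar profiles, interaction tests with zone and family counts along the root were not recomputed without them. Leaving them out left a single array in each of their groups. A call lost in that fit therefore does not by itself show a changed difference. Plastid signal also differed with pH: in zone 1 the plastid means were 9.91 and 10.29 on the log2 scale at pH 4.6, against 8.25 and 8.78 at pH 5.7, while LHCB4.1, a nuclear photosynthesis gene, had 60.4 to 83.3 at pH 4.6 against 159 to 198 at pH 5.7. In zone 2 they were 8.04 and 8.14 at pH 4.6, against 8.21 and 9.75 at pH 5.7, and in zones 3 and 4 the groups overlapped. Both arrays of zone 1 at pH 4.6 remained when the 4 arrays were left out, and the part of plastid signal in the results was not tested further. Replicates correlated over probe sets with Pearson r between 0.838 and 0.958, and array medians lay between 64.8 and 101.

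AT4G22640 had its lowest and its highest signal in the same zone, at opposite pH. In zone 3 it measured 17.2 and 5.36 at pH 4.6, against 862 and 924 at pH 5.7. In zone 2 it measured 44.7 and 17.0 at pH 4.6, against 481 and 324 at pH 5.7. In zone 4 the intensities were 24.3 and 6.12 at pH 4.6, against 134 and 257 at pH 5.7. The groups did not overlap in any of these zones. Zone 1 was the least affected, with 32.2 and 57.0 at pH 4.6, against 67.7 and 123 at pH 5.7, again without overlap.

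Along the root AT4G22640 had means of 44.6, 30.9, 11.3 and 15.2 in zones 1 to 4 at pH 4.6, against 95.2, 403, 893 and 196 at pH 5.7. The profile thus had its peak in zone 3 at pH 5.7, whereas at pH 4.6 zone 3 had the lowest mean and zone 1 the highest. The arrays of zones 2, 3 and 4 overlapped at pH 4.6, as did those of zones 1 and 2. The order of the zones there is therefore not firm, though both arrays of zone 1 were above those of zones 3 and 4. The signal at pH 4.6 was 46.8%, 7.67%, 1.26% and 7.76% of that at pH 5.7 in the 4 zones. On the log2 scale the differences were -0.86, -3.20, -5.09 and -2.76 (SE 0.47 each), and their mean was -2.98 ± 0.24. No other tested probe set had a more negative mean difference. On 5 of the 16 arrays, 1 of zone 2 and both of zones 3 and 4 at pH 4.6, its intensity was below the first quartile of the array, where a value is close to the floor of the measurement. A fold from such values is imprecise: the ratio of linear means in zone 3 was 79.3, and the mean difference over zones was -3.76 with a pseudocount of 1 and -2.05 with one of 64.

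AT3G53980 was a gene of zones 3 and 4, and its low pH difference was concentrated in zone 3. There it measured 347 and 519 at pH 4.6, against 3735 and 5770 at pH 5.7, so the groups were far apart. In zone 4 it measured 7349 and 6422 at pH 4.6, against 7674 and 13478 at pH 5.7. These groups did not overlap, but the highest array at pH 4.6 and the lowest at pH 5.7 were close. In zone 1 it had 10.9 and 8.17 at pH 4.6, against 52.9 and 7.15 at pH 5.7, and in zone 2 9.83 and 4.39 at pH 4.6, against 7.05 and 9.88 at pH 5.7. Both of those pairs of groups overlapped, and 7 of their 8 arrays were below the first quartile of the array.

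The mean of AT3G53980 in zone 3 was 433 ± 121 at pH 4.6 and 4753 ± 1439 at pH 5.7 (SD, n = 2 each), or 9.11% of the level at pH 5.7. In zone 4 the level at pH 4.6 was 65.1% of that at pH 5.7. The log2 difference was -3.40 ± 0.44 in zone 3 and -0.56 ± 0.44 in zone 4, with a mean over zones of -1.18 ± 0.22, rank 98 among the differences below 0. The values in zones 1 and 2, -0.65 ± 0.44 and -0.09 ± 0.44, had no firm sign. Without replicate 1 of zone 1 at pH 5.7 the zone 1 difference was 0.14, and without replicate 2 of zone 2 at pH 4.6 the zone 2 difference was 0.08. Without the 4 arrays with more plastid signal than their replicate the zone 4 difference was -0.16.

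**Figure D1:**
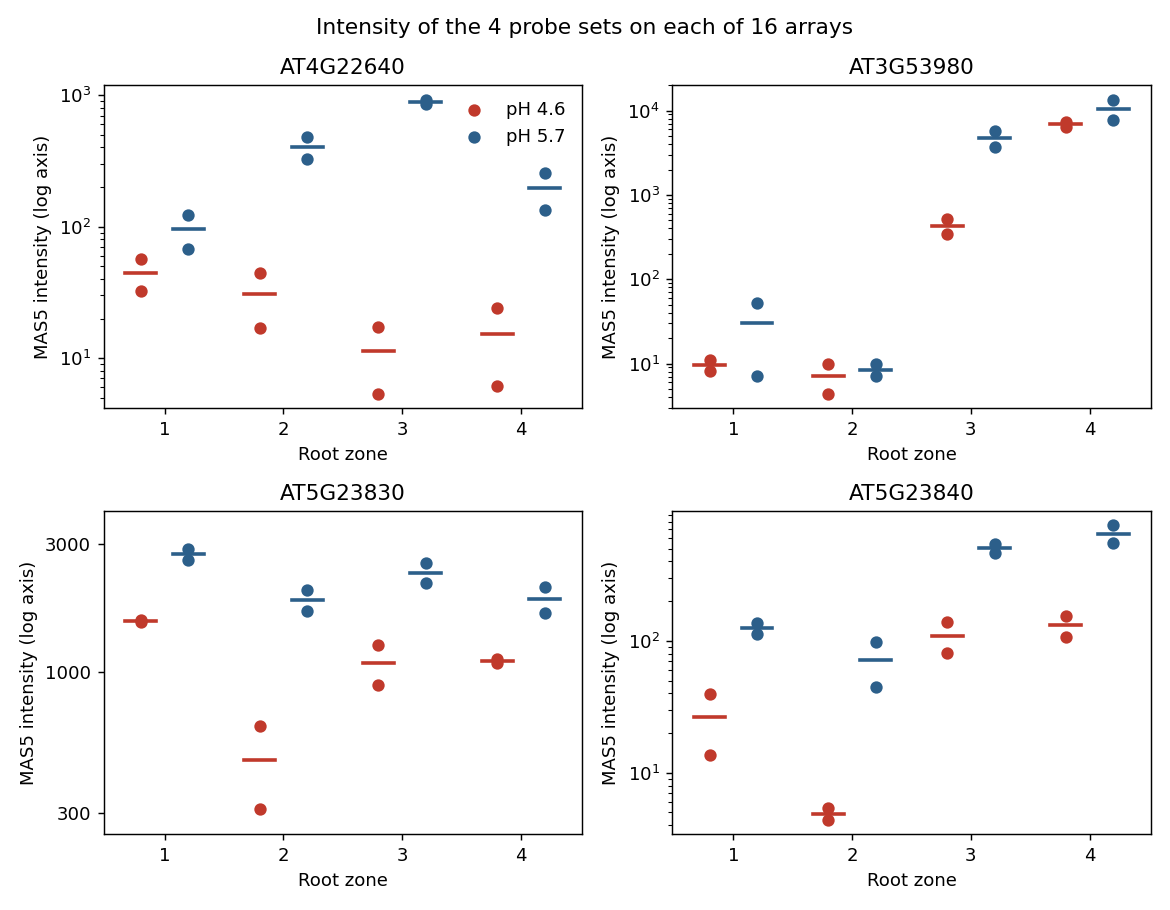
MAS5 intensity (log axis) of the 4 genes by root zone. Each point is 1 array, red for pH 4.6 and blue for pH 5.7, and each bar is the mean of 2 arrays. In zone 3 AT4G22640 had 17.2 and 5.36 at pH 4.6, against 862 and 924 at pH 5.7, and AT3G53980 is near the floor in zones 1 and 2 at both pH values.

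AT5G23830 measured between 310.3 and 2885 on the 16 arrays and was never below the first quartile of an array. In zone 2 it measured 632 and 310.3 at pH 4.6, against 2036 and 1695 at pH 5.7. In zone 1 it measured 1561 and 1535 at pH 4.6, against 2885 and 2632 at pH 5.7. In zone 3 the intensities were 898 and 1266 at pH 4.6, against 2548 and 2155 at pH 5.7. In all these zones the pH 4.6 arrays were below the pH 5.7 arrays. In zone 4 it measured 1083 and 1123 at pH 4.6, against 1670.3 and 2084 at pH 5.7, also without overlap.

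At pH 4.6 AT5G23830 kept 56.1%, 25.3%, 46.0% and 58.8% of its pH 5.7 mean in zones 1 to 4. The log2 differences were -0.83, -2.03, -1.12 and -0.75 (SE 0.31 each), with a mean of -1.18 ± 0.15, rank 93 among the differences below 0. The mean is the same to 2 decimals as that of AT3G53980, but it was spread over all zones, whereas most of the difference of AT3G53980 came from zone 3. Zone 2 had the lowest mean of AT5G23830 at pH 4.6, with 471 ± 228. At pH 5.7 zones 2 and 4, with 1865 ± 241 and 1877 ± 293 (SD, n = 2 each), could not be told apart.

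AT5G23840 had pH 4.6 signals of 21.4%, 6.90%, 21.9% and 20.2% of the pH 5.7 means in zones 1 to 4, lower in zone 2 than in the others. In zone 4 it measured 155 and 107 at pH 4.6, against 548 and 750.1 at pH 5.7. In zone 3 it measured 80.6 and 139 at pH 4.6, against 540.0 and 464 at pH 5.7. In zone 1 it had 13.6 and 39.7 at pH 4.6, against 137 and 112 at pH 5.7. The groups did not overlap in any of these zones. In zone 2, 5.40 and 4.42 at pH 4.6 stood against 44.4 and 97.9 at pH 5.7, and both pH 4.6 arrays there, with 1 of zone 1, were below the first quartile of the array.

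The log2 differences of AT5G23840 were -1.79, -1.99, -2.08 and -2.18 (SE 0.42 each) in zones 1 to 4, all within 1 SE of each other, and their mean was -2.01 ± 0.21, rank 9 among the differences below 0. Its mean intensities were 26.6, 4.91, 109.7 and 131 at pH 4.6, against 125, 71.1, 502 and 649 at pH 5.7. The order of the zone means was therefore the same at both pH values, with zone 4 highest and zone 2 lowest. Zones 3 and 4 were close, and their arrays overlapped at pH 4.6. With pseudocounts of 1 and 64 the mean difference was -2.60 and -1.40. The similar size of the zone differences holds for the pseudocount of 16: in zone 2, where the pH 4.6 arrays were at the floor, the difference was -3.51 with a pseudocount of 1 and -0.94 with 64, and in zone 1 it was -2.36 and -1.07. In zones 3 and 4 it was -2.23 and -2.30 with a pseudocount of 1 and -1.72 and -1.87 with 64.

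**Figure D2:**
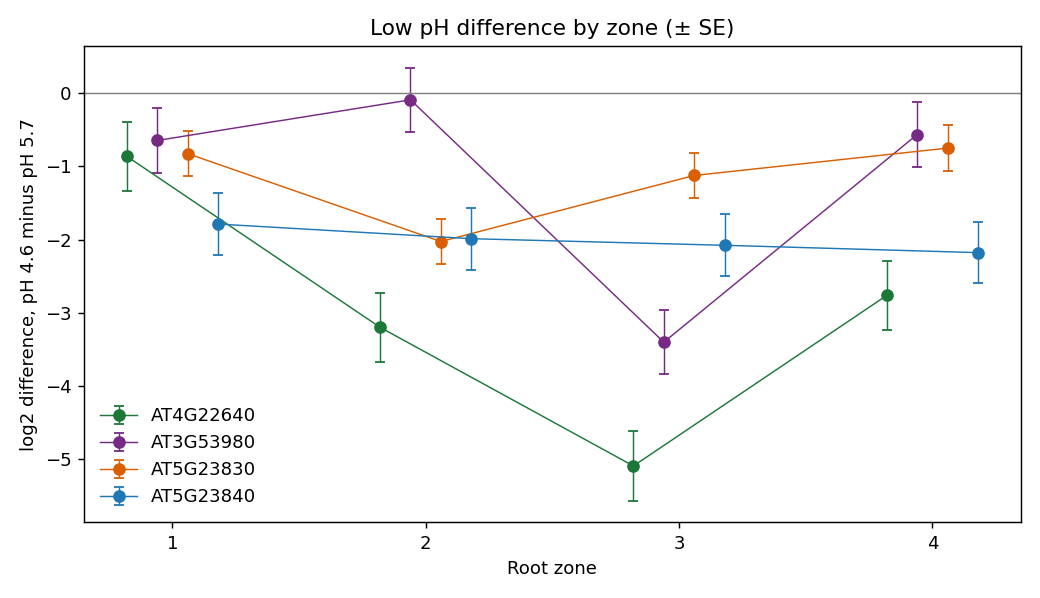
Log2 difference, pH 4.6 minus pH 5.7, of the 4 genes by root zone (points, fitted values; bars, ± SE). With the pseudocount of 16 used here AT5G23840 lies between -1.79 and -2.18 in all zones (-3.51 or -0.94 in zone 2 with pseudocounts of 1 or 64), while AT4G22640 and AT3G53980 reach -5.09 and -3.40 in zone 3.

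Across the 4 genes, the difference was most negative in zone 3 for both lipid-transfer genes and in zone 2 for AT5G23830. For AT5G23840 no zone stood out beyond the SE. Both pH 4.6 arrays were below both pH 5.7 arrays in all 4 zones for AT4G22640, AT5G23830 and AT5G23840, a pattern found in 0.738% of the tested probe sets. For AT3G53980 it held in zones 3 and 4. Because the genes were picked for low signal at pH 4.6, this count follows from the choice. Without the 4 arrays with more plastid signal than their replicate the mean differences were -2.85 for AT4G22640, -1.05 for AT3G53980, -1.27 for AT5G23830 and -1.95 for AT5G23840. In single zones AT5G23830 then had -1.49 in zone 3, and AT5G23840 had -1.53 in zone 2 and -2.53 in zone 3. The samples are whole zones, so fewer cells of a type and less RNA per cell cannot be told apart.

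Some markers of root hairs also moved with pH. Of 8 root hair genes listed, 4 were measured, namely the expansins EXPA7 and EXPA18 and the peroxidases AT4G26010 and AT1G30870. Their summed intensity in zone 3 was 2020 to 2408 at pH 4.6, against 10184 to 13737 at pH 5.7, and in zone 4 it was 131 to 211 at pH 4.6, against 1405 to 1620 at pH 5.7. In zones 1 and 2 the sums overlapped, with 27.5 to 114 and 73.4 to 302 at pH 4.6, against 36.3 to 76.8 and 37.7 to 137 at pH 5.7. Such a sum weighs the brighter probe sets more. Singly, the log2 differences of the 4 lay between -2.74 and -2.27 in zone 3 and between -2.99 and -2.36 in zone 4. Averaged over zones, 3 of the 4 fell at pH 4.6, beside 2.40% of all tested probe sets: AT4G26010 by 1.25 ± 0.27 (limma, adjusted p = 0.0121), EXPA18 by 1.14 ± 0.31 (0.0386) and EXPA7 by 1.12 ± 0.30 (0.0401). AT1G30870 had -0.89 ± 0.33 (limma, adjusted p = 0.124). In single zones, 3 of the 4 markers were called lower in zone 3 and 3 in zone 4 (limma). Of 16405 tested probe sets, 147 were called lower in zone 3 and 251 in zone 4. These zone calls were not checked under the alternatives. The 3 calls of the mean were lost without the 4 arrays with more plastid signal than their replicate, where the differences were -1.20, -0.72 and -0.60. They were also lost with a pseudocount of 1 (limma, adjusted p = 0.218, 0.259 and 0.106). Of the 16 fits without 1 array, AT4G26010 kept its call in 16, EXPA18 in 5 and EXPA7 in 6. GSO1, the 1 measured gene of 8 endodermis markers, had 828 to 842 at pH 4.6 against 1597 to 1681 at pH 5.7 in zone 3, and 772 to 804 at pH 4.6 against 403 to 439 at pH 5.7 in zone 4. The part of these cell types in the low pH differences of the 4 genes was not tested. No marker listed for xylem, meristem or root cap had a probe set with a name here. The 3' to 5' ratio of control probe sets, a measure of RNA quality, also differed with pH. For GAPDH it was lower at pH 4.6 in zone 3 and higher in zones 1 and 4, without overlap. For ubiquitin it was lower in zone 3 and higher in zone 4, and for actin the groups overlapped in all 4 zones. The log2 GAPDH ratio of single arrays lay between 3.25 and 7.99. The part of these ratios was not tested either.

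Levels along the root were tested as averages over both pH values. In this balanced design such an average is estimated independently of the pH difference within a zone, but a low pH difference confined to 1 zone still lowers the average of that zone. Most steps are therefore also given at each pH, as values beside the tests. All 4 genes differed between zones (limma moderated F-test, Benjamini-Hochberg adjustment over 16405 probe sets), as did 58.3% of all tested probe sets, so the count is not particular to them. AT3G53980 had log2 levels of 5.00, 4.57, 10.48 and 13.03 in zones 1 to 4 and differed between zones (limma, adjusted p = 4.87e-11). It rose by 5.92 ± 0.31 in zone 3 over zone 2 (limma, adjusted p = 5.46e-09) and by a further 2.55 ± 0.31 in zone 4 over zone 3 (adjusted p = 6.88e-05). The step between zones 2 and 3 was 4.26 at pH 4.6 and 7.58 at pH 5.7, and that between zones 3 and 4 was 3.97 at pH 4.6 and 1.13 at pH 5.7 (SE 0.44 each), so the average joins unlike profiles. Because zone 2 was at the floor, the size of the averaged step between zones 2 and 3 depended on the pseudocount, at 7.38 with 1 and 4.40 with 64. Zones 1 and 2, both near the floor, were not told apart (-0.43 ± 0.31, limma, adjusted p = 0.400).

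AT5G23840 was also higher in zones 3 and 4. Its log2 levels were 6.24, 5.38, 7.97 and 8.27 (limma, adjusted p = 1.12e-06). It rose by 2.59 ± 0.30 in zone 3 over zone 2 (adjusted p = 5.43e-06 in limma), by 2.55 at pH 4.6 and 2.64 at pH 5.7. The averaged step was 3.54 with a pseudocount of 1 and 1.70 with 64. The neighbouring pairs zone 2 and zone 1 (-0.86 ± 0.30, limma, adjusted p = 0.0679) and zone 4 and zone 3 (0.30 ± 0.30, adjusted p = 0.551) missed the threshold. At pH 4.6 these steps were -0.96 and 0.25, and at pH 5.7 they were -0.76 and 0.35 (SE 0.42 each). The step between zones 1 and 2 passed without the 4 arrays with more plastid signal than their replicate (-1.09, adjusted p = 0.0378), with a pseudocount of 1 (0.0236), without replicate 1 of zone 1 at pH 4.6 (0.0328) and without replicate 2 of zone 2 at pH 5.7 (0.0400).

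AT5G23830 had its highest level in zone 1. The log2 levels were 11.02, 9.86, 10.64 and 10.50, a ratio of 2.24 between zone 1 and zone 2. AT5G23830 differed between zones (limma F-test, adjusted p = 0.00206). It fell by 1.17 ± 0.22 in zone 2 relative to zone 1 (limma, adjusted p = 0.00217) and rose by 0.78 ± 0.22 in zone 3 over zone 2 (adjusted p = 0.00983). At pH 4.6 these steps were -1.77 and 1.24, and at pH 5.7 they were -0.56 and 0.33 (SE 0.31 each). The rise lost its call with each array centred on its median (0.70, adjusted p = 0.0505), without replicate 2 of zone 2 at pH 4.6 (0.54, adjusted p = 0.0612) and without the 4 arrays with more plastid signal than their replicate (0.66, adjusted p = 0.101). Zones 3 and 4 were not told apart (-0.14 ± 0.22, limma, adjusted p = 0.721).

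For AT4G22640 the zone test was close to the threshold. Its levels averaged over pH were 6.32, 7.08, 7.28 and 6.28, and they differed between zones (limma F-test, adjusted p = 0.0291). The ratio between zone 3 and zone 4 was 2.00. No step between neighbouring zones passed, that from zone 3 to zone 4 included (limma, adjusted p = 0.147, 0.678 and 0.0624). With a pseudocount of 64, zone 2 was higher than zone 1 (0.68, limma, adjusted p = 0.0387) and zone 4 lower than zone 3 (-0.93, adjusted p = 0.00718). From zone 1 to zone 4 the steps were 1.93, 1.14 and -2.16 at pH 5.7, and -0.40, -0.75 and 0.17 at pH 4.6 (SE 0.47 each). The average thus joins unlike profiles, and the steps at pH 4.6 rest largely on values near the floor. The call was lost when replicate 1 of zone 1 was left out at pH 4.6 (adjusted p = 0.0537) or pH 5.7 (0.0631), or replicate 1 of zone 3 at pH 4.6 (0.0736). It was also lost without replicate 2 of zone 4 at pH 4.6 (0.0645), replicate 1 of zone 2 at pH 5.7 (0.0528) or replicate 1 of zone 4 at pH 5.7 (0.0678). Zone 3 over zone 2 was a called rise for AT3G53980, AT5G23830 and AT5G23840, that is 3 of the 4 genes, against 18.0% of tested probe sets. For AT5G23830 this rise was 1.24 at pH 4.6 and 0.33 at pH 5.7 (SE 0.31 each). Its low pH difference was most negative in zone 2, so the count is not independent of how the genes were chosen. Zone 2 was called lower than zone 1 for 1 of the 4 and higher for 0, against 6.41% and 7.99% of tested probe sets. Zone 4 was called higher than zone 3 for 1 of the 4 and lower for 0, against 6.38% and 6.40%.

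**Figure D3:**
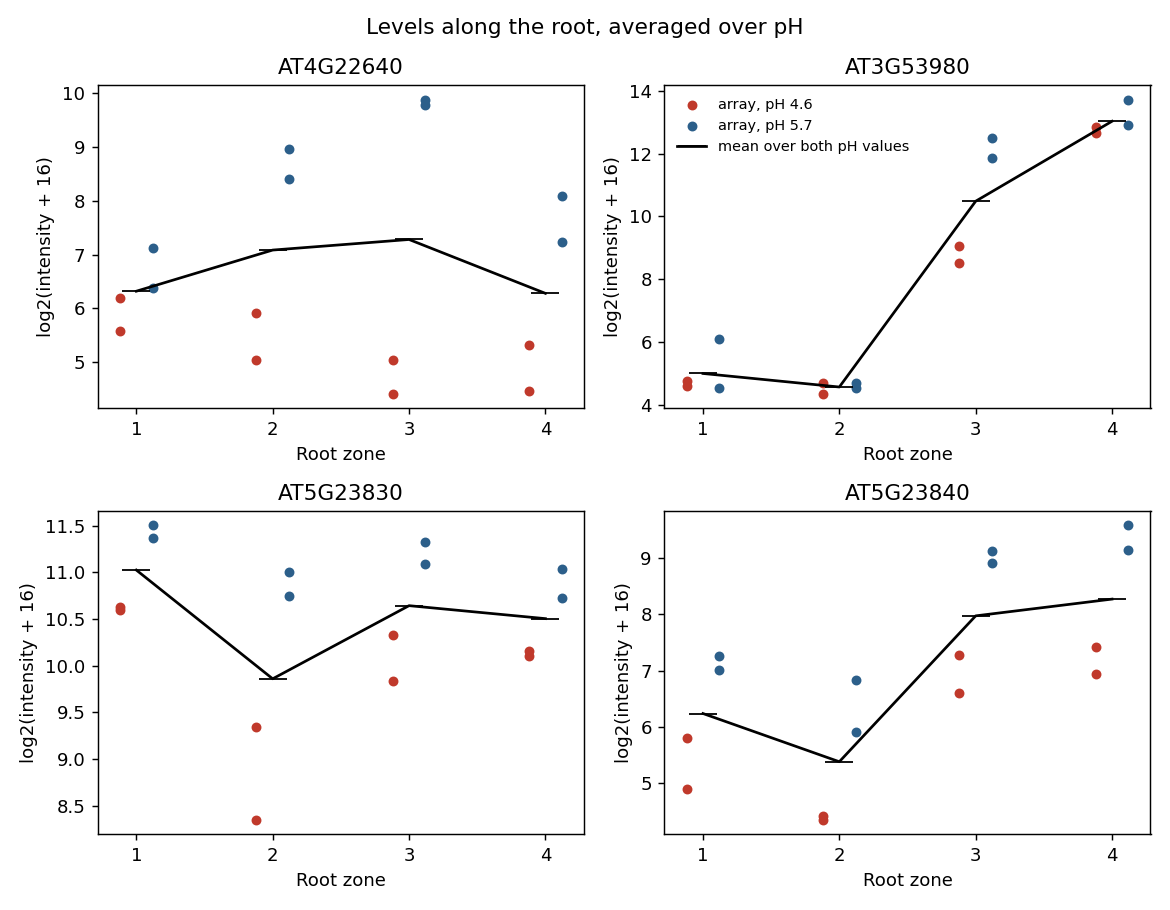
Log2(intensity + 16) of the 4 genes by root zone, each with its own axis. Points are single arrays at pH 4.6 (red) and pH 5.7 (blue), and the black line joins the fitted means over both pH values, on which the zone tests were made. AT3G53980 climbs from 4.57 in zone 2 to 13.03 in zone 4.

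AT3G53980 and AT5G23840 belong to different families, and both were higher in zones 3 and 4 than in zones 1 and 2. Their profiles were not alike throughout: from zone 3 to zone 4 at pH 4.6 AT3G53980 rose by 3.97 and AT5G23840 by 0.25. Over the 16 arrays their log2 levels correlated with Pearson r = 0.81, over the 8 arrays at pH 4.6 with r = 0.88 and over the 8 arrays at pH 5.7 with r = 0.97. The adjacent genes AT5G23830 and AT5G23840 had r = 0.63 over 16 arrays, 0.52 at pH 4.6 and -0.09 at pH 5.7. AT4G22640 and AT3G53980, of the same family, had r = 0.15, -0.62 and 0.32 over the same sets. All arrays share zone and pH, so these values describe common profiles, and the coefficients over all 16 arrays include the pH difference the genes were chosen for.

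The genes with the most similar profiles over the 16 arrays were looked up among 9090 other named and tested genes. For AT3G53980 they were AT1G48750 (r = 0.98), AT5G05960 (0.96) and AT1G80180 (0.96), and AT1G48750 and AT5G05960 are themselves on the list of lipid-transfer genes used below. In zone 3, where AT3G53980 differed by -3.40, AT1G48750 had -1.13 ± 0.36 (limma, adjusted p = 0.107) and AT5G05960 -0.996 ± 0.51 (adjusted p = 0.334). Both had a mean over zones near 0, at -0.19 ± 0.18 and 0.17 ± 0.25. They therefore shared the climb from zone 2 to zone 4 with AT3G53980, and their low pH differences were smaller in size.

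For AT5G23840 the most similar genes were AT1G33340 (r = 0.92), AT1G66800 (0.91) and AT4G22212 (0.90), with mean low pH differences of -0.97 ± 0.26, -1.43 ± 0.24 and -1.91 ± 0.21. For AT4G22640 they were AT3G17780 (0.85), AT4G16444 (0.76) and ZW9 (AT1G58270; 0.74), with -0.73 ± 0.13, -0.30 ± 0.14 and -1.80 ± 0.20. For AT5G23830 they were AT4G24440 (0.80), AT4G19390 (0.79) and AT5G47460 (0.79), with -0.48 ± 0.16, -0.67 ± 0.18 and -0.55 ± 0.27. A gene similar to one that is low at pH 4.6 tends to be low there too, so the sign of these differences follows from how they were found.

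The rest of both families shows how far the low pH difference reached beyond the 4 genes. Of 92 other genes listed as lipid-transfer type, 42 had a probe set with a name and 23 passed the filter. Averaged over zones, 3 of these 23 rose at pH 4.6 and 2 fell, against 3.66% and 2.40% of all tested probe sets (4 and 3 at an unadjusted p under 0.05). The median of the 23 was -0.12, beside 0.04 over all tested probe sets, and 14 of the 23 had a value below 0. Without the 4 arrays with more plastid signal than their replicate, the differences were 1.77 for AT2G18370, 1.40 for AT3G18280 and 0.93 for AT4G22470. They were then -0.95 for AT4G33550 and -1.31 for AT4G22460. AT2G18370 alone kept its call, in a fit with single arrays in some groups. With each array centred on its median, 49.9% of the calls over all probe sets were rises, compared with 60.4% as deposited.

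AT2G18370 rose by 1.51 ± 0.30 (limma, adjusted p = 0.00769), most visibly in zone 4, with 1556 and 1644 at pH 4.6 against 259 and 345 at pH 5.7. AT3G18280 rose by 1.25 ± 0.26 (limma, adjusted p = 0.0101), with 197 and 832 at pH 4.6 against 29.4 and 57.8 at pH 5.7 in zone 2. In zone 4 it had 15572 and 13529 at pH 4.6 against 6661 and 6319 at pH 5.7. In each of these the pH 4.6 arrays were above the pH 5.7 arrays. In zone 3 AT3G18280 had 8925 and 6713 at pH 4.6 against 8622 and 9686 at pH 5.7, which overlapped. AT4G22470 rose by 0.96 ± 0.27 at the edge of the threshold (limma, adjusted p = 0.0473). With the replicate number as a block the adjusted p of AT4G22470 was 0.05003, with median centring it was 0.107, and its call held in 3 of the 16 fits that left out 1 array, those without replicate 1 of zone 3 at pH 5.7, replicate 2 of zone 4 at pH 4.6 or replicate 2 of zone 4 at pH 5.7. AT4G12490 had 1.00 ± 0.38 and did not pass (limma, adjusted p = 0.147). The call of AT3G18280 was lost without the 4 arrays with more plastid signal than their replicate (adjusted p = 0.0510).

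AT4G33550 fell by 1.18 ± 0.23 (limma, adjusted p = 0.00665). It had 231 and 172 at pH 4.6 against 989 and 716 at pH 5.7 in zone 3, and 541 and 601 at pH 4.6 against 2123 and 3357 at pH 5.7 in zone 4. The groups were apart in both zones. AT4G22460 fell by 1.47 ± 0.35 (limma, adjusted p = 0.0230), with 5.67 and 55.8 at pH 4.6 against 340.4 and 308 at pH 5.7 in zone 4. Without the 4 arrays with more plastid signal than their replicate neither passed in limma (adjusted p = 0.0576 for AT4G33550 and 0.1498 for AT4G22460). The call of AT4G22460 was also lost with a pseudocount of 1 (0.0586), without replicate 1 of zone 2 (0.0704), replicate 2 of zone 3 (0.0615) or replicate 1 of zone 4 (0.0712) at pH 4.6, and without replicate 2 of zone 2 (0.0603) or replicate 1 of zone 4 (0.0514) at pH 5.7. The mean differences of AT4G22640 and AT3G53980 were -2.98 and -1.18, so AT4G22640 was below both of these genes and AT3G53980 was level with AT4G33550.

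A difference of the low pH effect between zones was called for 0 of the other 23 lipid-transfer genes (limma interaction test; 6 at an unadjusted p under 0.05), against 1.59% of tested probe sets. Along the root, averaged over pH, 12 of the 23 rose in zone 3 over zone 2 and 3 fell, against 18.0% and 20.4% of all tested probe sets. Of the 23, 19 differed between zones, beside 58.3% of all tested probe sets. Among the 19, 9 had their highest level in zone 4, 5 in zone 3, 3 in zone 2 and 2 in zone 1. Among all probe sets that differed between zones, 25.6% had it in zone 4, 21.5% in zone 3, 15.8% in zone 2 and 37.1% in zone 1.

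The MD-2-related family was smaller. Of 6 other genes listed, 4 had a probe set with a name and 3 passed the filter. AT3G11780 rose at pH 4.6 by 0.60 ± 0.14 (limma, adjusted p = 0.0171). It had 712 and 698 at pH 4.6 against 278 and 424 at pH 5.7 in zone 2, and 2316 and 2453 at pH 4.6 against 1067 and 1286 at pH 5.7 in zone 3. These groups did not overlap. In zone 4, with 3530.3 and 3310 at pH 4.6 against 3414 and 3014 at pH 5.7, they did. Its call was lost with each array centred on its median (limma, adjusted p = 0.0679) and without replicate 1 of zone 4 at pH 4.6 (0.0531).

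AT3G44100 and AT5G06480 had -0.11 ± 0.17 and 0.08 ± 0.19 (limma, adjusted p = 0.791 and 0.870), and the interaction with zone passed for 0 of the 3 (0 at an unadjusted p under 0.05). AT3G11780 and AT3G44100 were highest in zone 4 and AT5G06480 in zone 1 (limma F-test, adjusted p = 1.24e-09, 0.00537 and 1.18e-05). The difference between AT5G23830 or AT5G23840 and these 3 genes was not tested. A list of 18 suberin and cutin genes held 1 with a named probe set, FACT (AT5G63560), an acyltransferase that joins caffeic acid to the fatty alcohols of suberin waxes, which had 0.12 ± 0.26 (limma, adjusted p = 0.866).

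**Figure D4:**
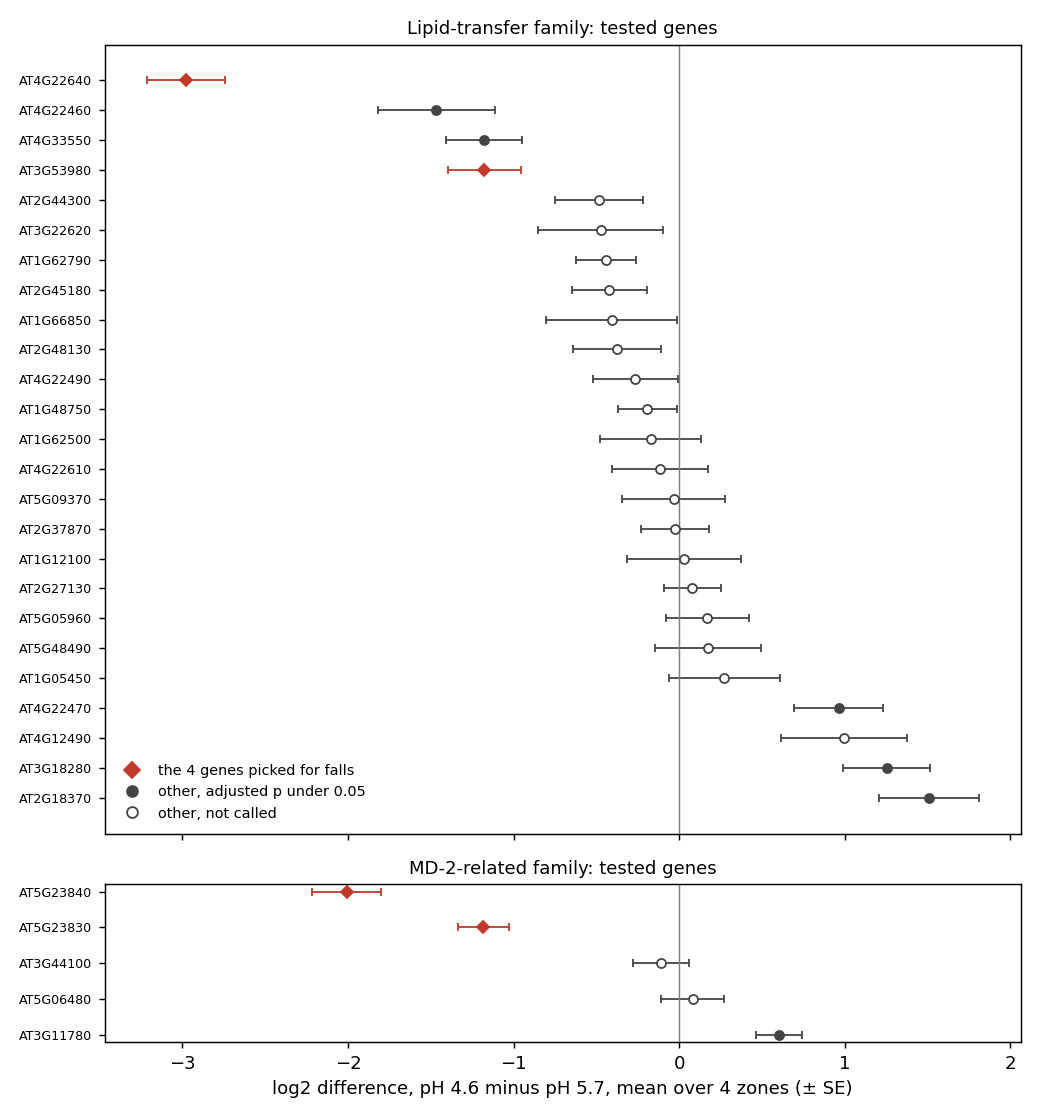
Mean low pH difference over the 4 zones (log2, pH 4.6 minus pH 5.7, ± SE) of the tested genes on the lipid-transfer and MD-2-related lists. Red diamonds are the 4 genes picked for their low signal at pH 4.6 and carry no call; filled circles passed the limma test at an adjusted p under 0.05 and open circles did not. AT4G22640 at -2.98 and AT5G23840 at -2.01 lie at the left end of their lists.

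AT5G23830 and AT5G23840 are next to each other in the RefSeq gene order of assembly TAIR10.1. Of 18 distinct other genes up to 3 places from any of the 4 genes, 6 had a probe set with a name and 4 passed the filter. AT5G23850, on the other side of AT5G23840, had 0.27 ± 0.22 (limma, adjusted p = 0.545). Beside AT3G53980, AT3G53970 had 0.00 ± 0.15 and AT3G54000 -0.07 ± 0.28. AT3G53990 fell by 0.54 ± 0.15 (limma, adjusted p = 0.0416; 2.40% of tested probe sets were called lower), a call that held in 3 of the 16 fits without 1 array (replicate 2 of zone 2 at pH 4.6, replicate 1 of zone 2 or replicate 2 of zone 3 at pH 5.7) and was lost without the 4 arrays with more plastid signal than their replicate (adjusted p = 0.119). AT4G22650 and AT3G53960 were too dim to test. AT5G23820, on the far side of AT5G23830, was not analysed here.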

How the data were processed

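Per the labels' protocols, RNA was purified with a Qiagen RNeasy kit and amplified in a double cycle to biotin-labelled cRNA. The authors deposited 1 linear intensity per probe set and array, made with MAS5 (version not given in the sources used here) per the submitters' processing notes. Between the 2nd and 98th percentile, the mean intensity was 249.9 on every array. No normalization was added. A probe annotation table named 13513 probe sets singly, 503 with several genes, and did not list 8730; the RefSeq table of TAIR10.1 held 13436 of the single names. The 64 controls were left out.

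Values were analysed as log2(intensity + 16), which understates changes of dim probe sets. Probe sets with a zone mean at or above the 40th percentile (5.95) were tested. The 8 groups were fitted as means in limma 3.58.1 (R 4.3.3; eBayes with a trend, 8 residual degrees of freedom), two-sided, with Benjamini-Hochberg adjustment over 16405 probe sets and a threshold of 0.05. With 2 arrays a group, the smallest p of an exact permutation test of pH within 1 zone is 0.333. No permutation test was run, for single zones or over zones. The labels do not state separate cultures for replicates, so p-values reflect array spread alone, possibly technical. The number of arrays limits precision.

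The members, the gene lists and the alternatives were chosen with earlier results of these data known. The lists were written from general knowledge of gene families and cell types, and the brightest probe set stood for a gene. Named were the 4 genes, all tested MD-2-related genes, the lipid-transfer genes called in the mean low pH effect or among the 5 largest changes, called suberin genes, the 3 most similar profiles and the measured neighbours up to 3 places away. AT2G18370, AT3G18280, AT4G22460, AT4G33550 and AT3G11780 are shown in zones chosen after their values were seen, and FACT and the measured marker genes are named outside that rule, also after their values were seen. The fit was tested on simulated data. Alternatives were other pseudocounts, median centring, quantile normalization, no filter, no trend, a replicate block, and leaving out each array or the 4 arrays with more plastid signal than their replicate.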

Additional observations from a re-analysis of the deposited data

How the results depend on the processing

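The mean low pH difference of each of the 4 genes stayed below 0 under all alternatives run. With a pseudocount of 1 it was -3.76 for AT4G22640 and -2.60 for AT5G23840, and with 64 it was -2.05 and -1.40. With 1 array left out it ranged from -3.09 to -2.87 for AT4G22640, -1.37 to -0.98 for AT3G53980, -1.31 to -1.06 for AT5G23830 and -2.12 to -1.89 for AT5G23840. Some values changed sign when 1 array was left out, and the cause was not tested. AT3G53980 ranged from -1.43 to 0.141 in zone 1 and from -0.261 to 0.0806 in zone 2, and the step of AT4G22640 from zone 2 to zone 3 from -0.0237 to 0.416 (it was -0.12 with a pseudocount of 1). The mean difference ranged from -0.0201 to 0.184 for AT5G06480 and from -0.234 to 0.0141 for AT3G44100.

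The zone test of AT4G22640 missed the threshold with a pseudocount of 1 (limma, adjusted p = 0.204), with median centring (0.0600) and with no filter (0.0516), where more probe sets were tested; with 1 array left out it ranged from 0.0205 to 0.0736. The same range was 1.61e-11 to 2.52e-09 for AT3G53980, 0.000399 to 0.0117 for AT5G23830 and 1.51e-06 to 9.40e-06 for AT5G23840.

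Over all probe sets, 995 were called in the mean low pH effect, and 112, 63, 459 and 477 in zones 1 to 4. Median centring called 583 in the mean, 61 in zone 1 and 266 in zone 3; it also moved the share of rises in zone 1 to 32.8%, compared with 44.6%, and in zone 4 to 36.1%, compared with 47.4%. A pseudocount of 1 called 294 in zone 3, and eBayes without a trend 55 in zone 1 and 26 in zone 2. Without the 4 arrays with more plastid signal than their replicate, 367, 15, 89 and 294 were called in zones 1 to 4. With 1 array left out, the calls ranged from 511 to 1444 in the mean, 33 to 309 in zone 1, 15 to 158 in zone 2, 93 to 1550 in zone 3 and 66 to 802 in zone 4, and from 8487 to 10765 in the zone test.

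Replicates share only a number: over 28 pairs of groups, deviations of same-numbered arrays correlated with r between -0.25 and 0.41, with 13 below 0. The replicate block cannot move a difference between groups in this balanced design (the mean differences stay -2.98, -1.18, -1.18 and -2.01) and acts on the errors alone. With it 1036 probe sets were called in the mean effect, and the zone test of AT4G22640 gave an adjusted p of 0.0336 in limma. Among the genes named, AT4G22470 alone lost its call (0.05003). Intensities below an array's first quartile, found for AT4G22640, AT3G53980 and AT5G23840, limit what can be said of folds there.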
